A study of Homo sapiens with 12 samples.

Results

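Collagen chains and integrin subunits were followed in RCC4, an established human line of clear cell renal carcinoma, before and after knockdown of MESH1. All gene symbols of the count files that begin with COL or ITG and continue with the numbering of a collagen chain or an integrin alpha or beta subunit were taken, together with ITGAV, ITGAE, ITGAL, ITGAM, ITGAX and ITGAD. This gave 69 genes, 44 collagens and 25 integrins, of the 23710 genes counted. MESH1 encodes the metazoan SpoT homolog, an enzyme that hydrolyses ppGpp and dephosphorylates NADPH, and is listed under the symbol HDDC3. Every cell was transfected with 40 pmol of siRNA and Lipofectamine RNAiMAX and was collected 72 hours later, so the control groups carried an siRNA as well. Experiment 1 compared 3 libraries of siMESH1-CDS, which targets the coding sequence, with 3 libraries of a non-targeting siRNA (siNT). Experiment 2 compared 3 libraries of siMESH1-7002, which targets the 3′UTR, with 3 other siNT libraries. All 12 libraries came from the same cell line and are labelled as biological replicates; nothing further describes how the cultures were separated, so the p-values measure the spread between these libraries only.

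Collagens are triple helices of 3 alpha chains. The fibrillar types form banded fibres, type IV forms the sheet-like network of basement membranes, types VI and VII anchor cells and epithelia to the matrix, and FACIT collagens decorate the surface of fibrils. Integrins are receptors made of 1 alpha and 1 beta subunit that link this matrix to the actin cytoskeleton. The alpha subunit mainly sets the ligand, so ITGA1 and ITGA2 mark receptors for collagen, ITGA3, ITGA6 and ITGA7 receptors for laminin, and ITGA5 and ITGAV receptors for the RGD motif of fibronectin, vitronectin and related proteins. ITGB1 pairs with many alpha subunits. Renal tubule epithelium, from which clear cell carcinoma is thought to arise, sits on a basement membrane of type IV collagen and laminin.

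The libraries held between 34063155 and 49134129 reads in genes in experiment 1 and between 24787804 and 31651125 in experiment 2. HDDC3 was at 8.23, 6.46 and 7.75 CPM (reads scaled to a common library size with TMM factors) with siNT and at 0.158, 0 and 0.316 CPM with siMESH1-CDS, and at 13.9, 13.1 and 12.7 CPM with siNT against 1.25, 1.18 and 1.72 CPM with siMESH1-7002. All 8 markers of renal carcinoma epithelium reached 1 CPM in each siNT group and with siMESH1-7002, and 7 with siMESH1-CDS, where their summed level was 3638 to 3708 CPM against 3818 to 4058 with siNT. Most of that sum came from VIM, at 3510 CPM with siNT and 3485 with siMESH1-CDS. KRT18 was at 77.3 CPM with siNT and 2.76 with siMESH1-CDS, KRT8 at 90.6 and 11.7, CA9 at 30.5 and 3.81, and NDUFA4L2 at 27.6 and 0.624. PAX8 was at 168 and 58.4 CPM and PAX2 at 18.05 and 6.07, whereas EGLN3 was higher with siMESH1-CDS, at 45.7 and 113.5 CPM. The part of these changed levels in the results was not tested. None of 5 fibroblast and 4 endothelial markers reached 1 CPM in any group. Replicates varied more in experiment 1, where edgeR estimated a common biological coefficient of variation of 0.299, than in experiment 2, where it was 0.049. In experiment 1, siNT replicates 1, 2 and 3 were in lanes 4, 5 and 6, and those of siMESH1-CDS in lanes 6, 7 and 4. Replicate 2 of each group was thus alone in its lane, and a fit with lane as a covariate cannot use it for the comparison. Changes with siMESH1-CDS followed the GC content of the transcripts, with a Pearson correlation of -0.753 across 12931 genes, against -0.122 across 13112 genes with siMESH1-7002. The collagen and integrin transcripts were rich in GC, with a median of 54.9% among those tested in experiment 1 against 47.8% over all genes tested. Changes with siMESH1-CDS are therefore also given after a correction that removes the dependence on GC content from every library. The part of the GC trend in the results was not tested.

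The 2 siRNA target sequences were taken from the study's design. Capitals mark the bases that pair with positions 2 to 8 of the guide strand, its seed, which alone can direct siRNAs to other transcripts.
siMESH1-CDS: gggaaucacugACAUUGUg
siMESH1-7002: ctgaaggtctcctGCTAACTa
These 7-base words are used below to mark 3′UTRs that hold the same letters.

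The siNT libraries give the repertoire of the line before knockdown. Levels of different genes were compared as CPM per kb of the longest protein-coding transcript. Type IV collagen dominated the collagens. COL4A1 stood at 427 ± 21.2 CPM per kb in experiment 1 and 559 ± 8.67 in experiment 2 (mean ± SD, n = 3 each). COL4A2, its partner in the common type IV heterotrimer, stood at 161 ± 9.94 and 518 ± 17.4 CPM per kb. Together they made up 88.5% ± 0.252 of the summed collagen level per kb in experiment 1 and 72.9% ± 0.723 in experiment 2. The other type IV chains were far lower. COL4A5 reached 1.18 and 3.70 CPM per kb, and COL4A6 did not exceed 2 reads in any siNT library. COL4A3 and COL4A4, which form the network of the mature glomerulus with COL4A5, were at 1.85 and 3.11 CPM in experiment 1 and at 3.94 and 14.6 CPM in experiment 2, not divided by length.

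After type IV, the next collagens were COL6A2, COL18A1, COL6A1 and COL7A1. COL6A1 and COL6A2 encode chains of the beaded filament, COL18A1 the basement membrane proteoglycan that is the source of endostatin, and COL7A1 the anchoring fibril. Their levels differed between the siNT groups by more than the spread within either group. COL18A1 was at 8.76 ± 0.779 CPM per kb in experiment 1 and 124 ± 6.6 in experiment 2. COL6A2 was at 11.7 ± 1.59 and 123 ± 7.03 CPM per kb, and COL6A1 at 10.9 ± 0.879 and 75.3 ± 3.57. The interstitial fibrillar chains were low or absent. COL1A1 stood at 3.09 and 1.78 CPM per kb, COL5A1 at 4.77 and 5.91, and COL1A2 and COL3A1 were among the 24 genes too low to be tested in either experiment. Of the 44 collagens, 18 reached 1 CPM in both siNT groups and 22 in neither, and 5 (COL10A1, COL14A1, COL2A1, COL6A6 and COL9A1) had no read in any siNT library.

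The integrins were led by ITGA3, ITGB1 and ITGB3. ITGA3, the alpha subunit of the main epithelial laminin receptor, stood at 224 ± 22.8 CPM per kb in experiment 1 and 411 ± 18.9 in experiment 2. ITGB1 was at 404 ± 7.36 and 202 ± 18 CPM per kb, and ITGB3, which pairs with ITGAV, at 247 ± 2.26 and 208 ± 3.14. In experiment 1 ITGB1 made up 53.2% ± 0.252 of the summed beta subunit level per kb and ITGB3 32.6% ± 0.208. In experiment 2 the shares were 36.0% ± 1.79 and 37.1% ± 0.945, and their ranges over the 3 libraries, 34.5% to 38% and 36% to 37.8%, overlapped. Next came ITGA5 at 136 ± 21.1 and 83.5 ± 5.42, ITGB5 at 73.6 and 72.3, and ITGAV at 79.8 and 36.3 CPM per kb. The collagen-binding subunits ITGA1 and ITGA2 were lower, at 7.38 and 9.57 CPM per kb in experiment 1 and at 6.67 and 3.78 in experiment 2. ITGA11, the receptor subunit of fibroblasts for fibrillar collagen, and ITGA8 had no read in any siNT library. Of the 25 integrins, 15 reached 1 CPM in both siNT groups and 7 in neither.

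**Figure D1:**
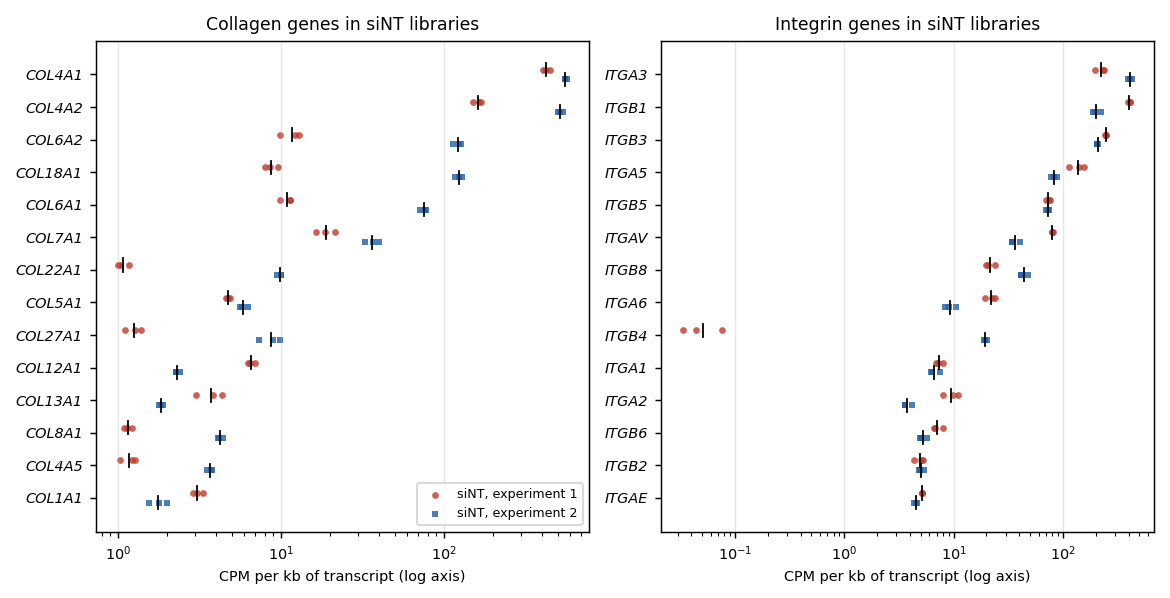
Levels of the 14 highest collagen genes (left) and integrin genes (right) in the siNT libraries, in CPM per kb of transcript on a log axis, with circles for the 3 libraries of experiment 1, squares for those of experiment 2 and black ticks for the means. COL4A1 and COL4A2 lie above the other collagens in both experiments, and ITGB4 lies apart at 0.0514 and 19.5 CPM per kb.

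The level of some genes differed widely between the siNT groups. ITGB4, the beta subunit of hemidesmosomes, had 9 to 21 reads per siNT library in experiment 1 and 2841 to 3785 in experiment 2. Across the 40 genes that reached 1 CPM in either siNT group, the log2 difference between the siNT groups of experiment 2 and experiment 1 had a Pearson correlation of 0.457 with GC content. The rank order was otherwise similar, with a Spearman correlation between the siNT groups of 0.865 over the 44 collagens and 0.913 over the 25 integrins. The siNT groups differ in experiment, lane and depth, and these cannot be told apart, so each siRNA was compared with the siNT libraries of its own experiment.

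Of the 69 genes, 37 passed the filter on low counts with each siRNA, 4 with siMESH1-CDS only, 4 with siMESH1-7002 only and 24 with neither. The highest group mean among the last 24 was 0.417 CPM. Genes such as COL6A5 (0.110 CPM with siNT and 0.949 with siMESH1-CDS) and COL17A1 (2.81 and 0.232 CPM) passed through 1 group only and had to differ, so the genes tested are not all members. COL15A1, COL16A1, COL17A1, COL27A1, ITGA7, ITGA10, ITGAM, ITGAX and ITGB7 held under 10 reads in at least 1 siMESH1-CDS library. They passed through the siNT group alone, so their falls with siMESH1-CDS are given as a description. The same holds for COL9A2 and COL8A2 with siMESH1-7002. The counts below include such genes, and with at least 10 reads required in every library 5 rose and 18 fell with siMESH1-CDS. Of all 11252 genes that met this requirement, 4178 rose and 4030 fell.

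With siMESH1-CDS, 41 collagen and integrin genes were tested, of which 10 rose, 26 fell and 5 were not called (edgeR quasi-likelihood test, adjusted p-value under 0.05 over all 13395 genes). Over all genes, 36.9% were called higher and 37.2% lower. The median log2 change was -1.33 over these genes and -0.05 over all genes. Scaling by library size alone gave 5 higher and 27 lower, where 4117 and 5611 of all 13395 genes were called. After GC correction 16 rose and 14 fell, with a median of -0.07, where 40.8% of all genes were called higher and 27.0% lower. Of the changes called without it, 7 had the opposite sign with GC correction. Groups without overlap were found for 38 of the 41 genes, against 82.7% of all genes tested.

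The direction differed with the base composition of the transcripts. Among 14 genes under 50% GC, 9 rose and 3 fell, and among 11 genes of 60% GC or more, none rose and 10 fell. Over all genes the same classes had 61% higher and 12.7% lower, and 1.11% higher and 88.3% lower. The Pearson correlation between GC content and the log2 change was -0.757 over the 41 genes, which share the libraries, and 0.0262 after correction. The 3 siMESH1-CDS libraries were not alike in the genes that fell. Of the 26 genes that fell, 20 were lowest in replicate 2 and 17 were highest in replicate 3. The 26 include genes that passed the filter through siNT alone. This order was not counted over all genes, so it is no trait of these genes. Replicate 2 was the only library in lane 7.

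**Figure D2:**
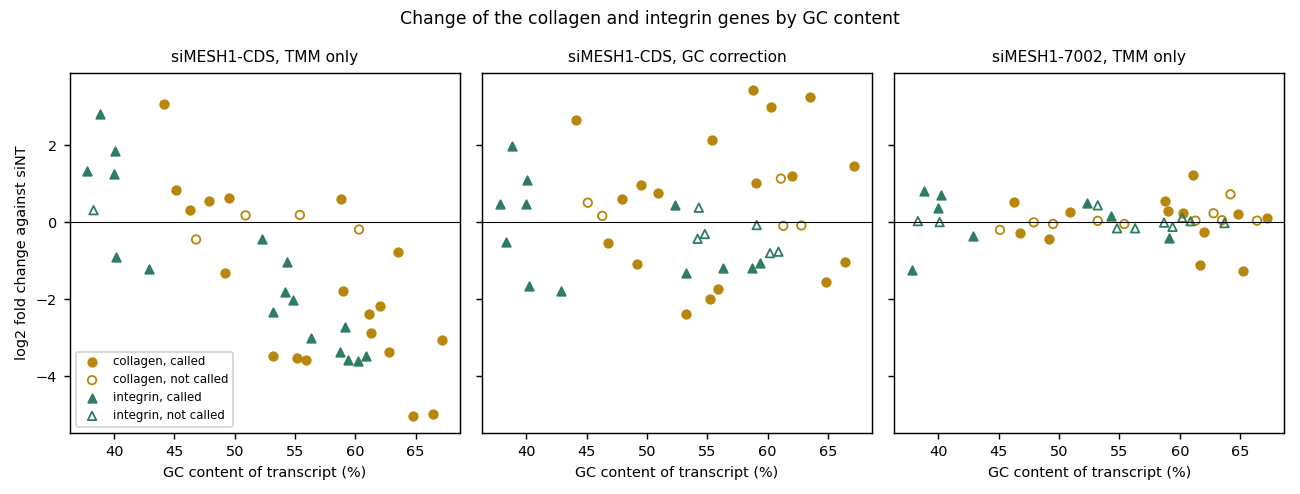
Log2 fold change against the GC content of the transcript (percent) for the collagen genes (circles) and integrin genes (triangles) tested, with siMESH1-CDS without (left) and with GC correction (middle) and with siMESH1-7002 (right), where filled symbols passed the test. The points of siMESH1-CDS fall with GC content before correction (Pearson correlation -0.757) and show no such slope for siMESH1-7002 (-0.0185).

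With siMESH1-7002, 41 genes were tested, of which 13 rose, 8 fell and 20 were not called. Over all 13568 genes tested, 26.6% were called higher and 26.7% lower. The median log2 change was 0.03 over the collagen and integrin genes and 0.01 over all genes. With GC correction 21 rose and 8 fell, where 39.8% of all genes were called higher and 24% lower. The groups of 22 of the 41 genes did not overlap, against 59.5% of all genes. In a fit of all 4 groups, which shares the spread of experiment 1, 7 rose and 2 fell, and the calls of COL13A1, COL18A1, COL4A2, COL4A3, COL4A5, COL5A1, COL7A1, COL8A1, COL8A2, ITGA6, ITGB2 and ITGB5 were lost. Calls were fewer over all genes as well, with 1138 higher and 1444 lower of 14154. In the main fit they were 3613 and 3622 of 13568.

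Both tests covered 37 of the collagen and integrin genes. Among them 4 rose with both siRNAs, 4 fell with both and 8 were called in opposite directions. Over the 12824 genes tested with each, 15.5% were called higher with both, 15.1% lower with both and 11.6% in opposite directions. With GC correction the numbers were 9, 3 and 6, against 21.6%, 10.8% and 14.6% of all genes. ITGA1, ITGB1 and COL22A1 rose with both, and COL4A3 and ITGA6 fell with both, under either processing.

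**Figure D3:**
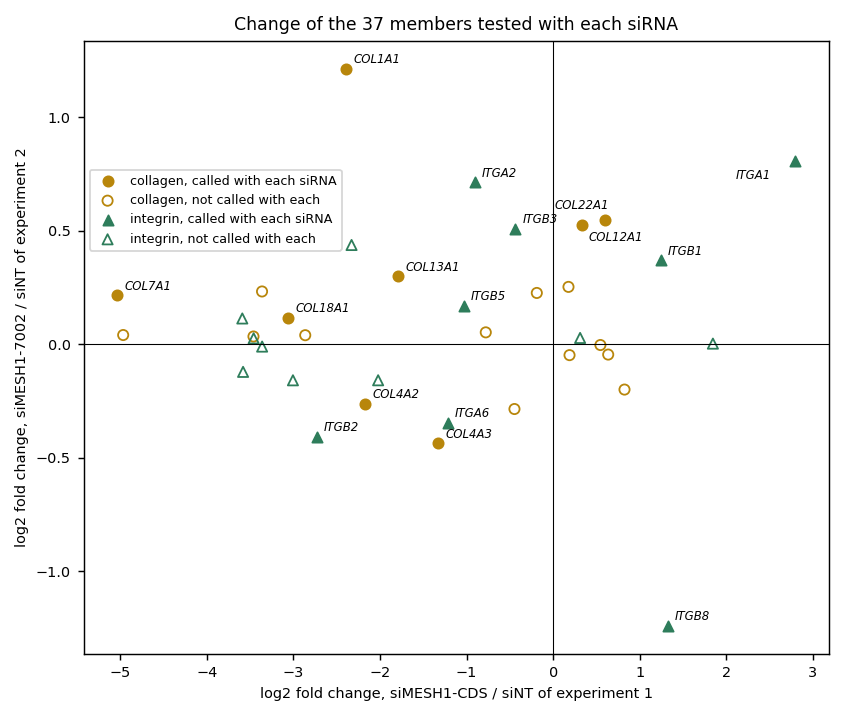
Log2 fold change with siMESH1-7002 (vertical axis) against that with siMESH1-CDS (horizontal axis) for the 37 collagen and integrin genes tested with each siRNA. Filled symbols were called with both and carry their names; 4 lie in the upper right, 4 in the lower left and 8 in the other quadrants, and the horizontal axis spans a wider range of changes.

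ITGA1, which with ITGB1 forms a receptor for collagen, had the largest rise with siMESH1-CDS among the collagen and integrin genes at 1 CPM. It was at 77.3, 86.8 and 74.0 CPM with siNT and at 533, 687 and 437 CPM with siMESH1-CDS, and at 66.6, 68.0 and 80.8 CPM with siNT and 123, 126 and 127 CPM with siMESH1-7002. Both knockdown groups lay above all siNT libraries. The log2 fold change was 2.80 with siMESH1-CDS (SE 0.19, edgeR adjusted p = 0.000257), 1.98 after GC correction (edgeR adjusted p = 1.32e-05), and 0.81 with siMESH1-7002 (SE 0.06, edgeR adjusted p = 1.69e-08). The change with siMESH1-7002 minus that with siMESH1-CDS was -1.84 (edgeR adjusted p = 3.68e-05), and -1.13 with GC correction (edgeR adjusted p = 6.41e-07).

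ITGB1, the common beta subunit, was at 1548, 1496 and 1540 CPM with siNT and at 3599, 4130 and 3133 CPM with siMESH1-CDS. In experiment 2 it was at 714, 740 and 843 CPM with siNT and at 1003, 998 and 968 CPM with siMESH1-7002. Every knockdown library lay above every siNT library of its experiment. It rose by 1.24 on the log2 scale with siMESH1-CDS (SE 0.13, edgeR adjusted p = 0.000582) and by 0.37 with siMESH1-7002 (SE 0.05, edgeR adjusted p = 1.77e-05). After GC correction the rises were 0.48 and 0.35, and the difference between them, -0.72 before (edgeR adjusted p = 0.00132), was -0.06 (edgeR adjusted p = 0.457).

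ITGA2, the alpha subunit of another collagen receptor with ITGB1, was called in opposite directions. Its libraries were at 85.7, 63.1 and 77.0 CPM with siNT and 38.1, 47.5 and 34.9 CPM with siMESH1-CDS, and at 28.5, 28.3 and 32.6 CPM with siNT and 49.0, 48.6 and 49.0 CPM with siMESH1-7002. The groups overlapped in neither experiment, and the knockdown group was the lower one in experiment 1 and the higher one in experiment 2. ITGA2 fell by 0.91 with siMESH1-CDS (SE 0.17, edgeR adjusted p = 0.00449) and rose by 0.71 with siMESH1-7002 (SE 0.06, edgeR adjusted p = 7.35e-08). With GC correction the change with siMESH1-CDS was -1.66 (edgeR adjusted p = 0.000122). The difference between the siRNAs of 1.77 (SE 0.19, edgeR adjusted p = 3.12e-05) became 2.43 with GC correction. ITGA1 and ITGA2 are neighbours on chromosome 5 (52787896 to 52959210 and 52989326 to 53094779, plus strand, GRCh38). ITGA10, a low collagen-binding subunit, was at 1.19 and 0.554 CPM with siNT and passed the filter of experiment 1 through siNT alone. Given as a description, its log2 change with siMESH1-CDS was -2.33, -1.32 with GC correction and -2.94 without siMESH1-CDS replicate 1. With siMESH1-7002 it changed by 0.44 without passing the test.

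Among the laminin-binding subunits, ITGA6 fell with each siRNA. It was at 135, 108 and 127 CPM with siNT and at 52.4, 62.5 and 43.9 CPM with siMESH1-CDS, and at 46.8, 51.1 and 58.6 CPM with siNT and 41.5, 40.0 and 41.5 CPM with siMESH1-7002. In each experiment all knockdown libraries lay below all siNT libraries. The log2 change was -1.22 (SE 0.16, edgeR adjusted p = 0.00126) and -0.35 (SE 0.07, edgeR adjusted p = 0.000633), and with GC correction -1.79 and -0.32. ITGA3 was at 1169, 965 and 1145 CPM with siNT and at 69.9, 16.5 and 212 CPM with siMESH1-CDS, a log2 change of -3.46 (SE 0.88, edgeR adjusted p = 0.0132). With GC correction the change was -0.77 (edgeR adjusted p = 0.067), without siMESH1-CDS replicate 1 it was -3.26 (edgeR adjusted p = 0.0524), and without replicate 3 it was -4.68. With siMESH1-7002 ITGA3 stayed at 2070, 2029 and 2044 CPM against 2094, 2027 and 1911 with siNT, a log2 change of 0.03 (SE 0.04, edgeR adjusted p = 0.618). ITGA7, at 1.07 and 5.26 CPM with siNT, had between 1 and 5 reads per siMESH1-CDS library and passed the filter there through siNT alone. Its log2 change, given as a description, was -3.59, -0.80 with GC correction and -4.18 without replicate 3.

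The RGD-binding subunits ITGA5 and ITGAV did not pass the test with siMESH1-7002, with log2 changes of -0.01 and 0.03. With siMESH1-CDS, ITGA5 went from 690, 504 and 619 CPM to 42.8, 10.1 and 123 CPM, a log2 change of -3.36 (SE 0.86, edgeR adjusted p = 0.0136), and of -1.19 with GC correction (edgeR adjusted p = 0.0237). As for ITGA3, the call was lost without siMESH1-CDS replicate 1 (edgeR adjusted p = 0.0537), and the change was -4.53 without replicate 3. ITGAV was at 561, 568 and 554 CPM and at 669, 834 and 585 CPM with siMESH1-CDS. All 3 knockdown libraries lay above those of siNT, but the log2 change of 0.31 did not pass the test (edgeR adjusted p = 0.09), and it was -0.52 with GC correction (edgeR adjusted p = 0.00014).

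Of the 8 beta subunits, 7 were tested with siMESH1-CDS, with 3 higher and 4 lower, and 8 with siMESH1-7002, with 3 higher and 2 lower. With GC correction 4 rose and 1 fell, and 4 rose and 2 fell. Of all genes tested with siMESH1-CDS, 36.9% were called higher and 37.2% lower, and 40.8% and 27.0% with GC correction. The shares with siMESH1-7002 were 26.6% and 26.7%, and 39.8% and 24% with GC correction. ITGB8, which pairs with ITGAV and is known for activating latent TGF-beta, moved in opposite directions. It was at 174, 210 and 179 CPM with siNT and at 427, 608 and 378 CPM with siMESH1-CDS, and at 362, 365 and 422 CPM with siNT and 156, 163 and 167 CPM with siMESH1-7002. ITGB8 thus lay above all siNT libraries in experiment 1 and below all of them in experiment 2. The log2 change was 1.32 with siMESH1-CDS (SE 0.20, edgeR adjusted p = 0.00182), 0.47 with GC correction, and -1.24 with siMESH1-7002 (SE 0.06, edgeR adjusted p = 1.46e-11), the largest fall of a collagen or integrin gene at 1 CPM with that siRNA after COL9A2. The difference of -2.41 (SE 0.22, edgeR adjusted p = 1.08e-05) was -1.68 with GC correction (edgeR adjusted p = 1.53e-07).

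ITGB6, another ITGAV partner of epithelia, was at 30.7, 37.6 and 31.3 CPM with siNT and at 119, 123 and 116 CPM with siMESH1-CDS. It rose by 1.84 on the log2 scale (SE 0.11, edgeR adjusted p = 0.00023) and by 1.11 with GC correction, whereas its change with siMESH1-7002 was 0.00 (SE 0.07, edgeR adjusted p = 0.975). The difference between the changes was -1.69 (edgeR adjusted p = 5.07e-06) and -1.05 with GC correction. ITGB3 was at 997, 980 and 985 CPM with siNT and 693, 670 and 822 CPM with siMESH1-CDS, and at 825, 820 and 844 CPM with siNT and 1184, 1196 and 1165 CPM with siMESH1-7002. It rose by 0.51 with siMESH1-7002 (SE 0.04, edgeR adjusted p = 8.88e-09). With siMESH1-CDS it fell by 0.44 (SE 0.11, edgeR adjusted p = 0.0108), a call that was lost without siMESH1-CDS replicate 1 (edgeR adjusted p = 0.0558) and with lane as a covariate (edgeR adjusted p = 0.0624), and that turned to 0.45 with GC correction (edgeR adjusted p = 0.0347). ITGB5 likewise fell by 1.03 with siMESH1-CDS (edgeR adjusted p = 0.000964), turned to 0.38 with GC correction (edgeR adjusted p = 0.127), and rose by 0.17 with siMESH1-7002 (edgeR adjusted p = 0.00335).

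**Figure D4:**
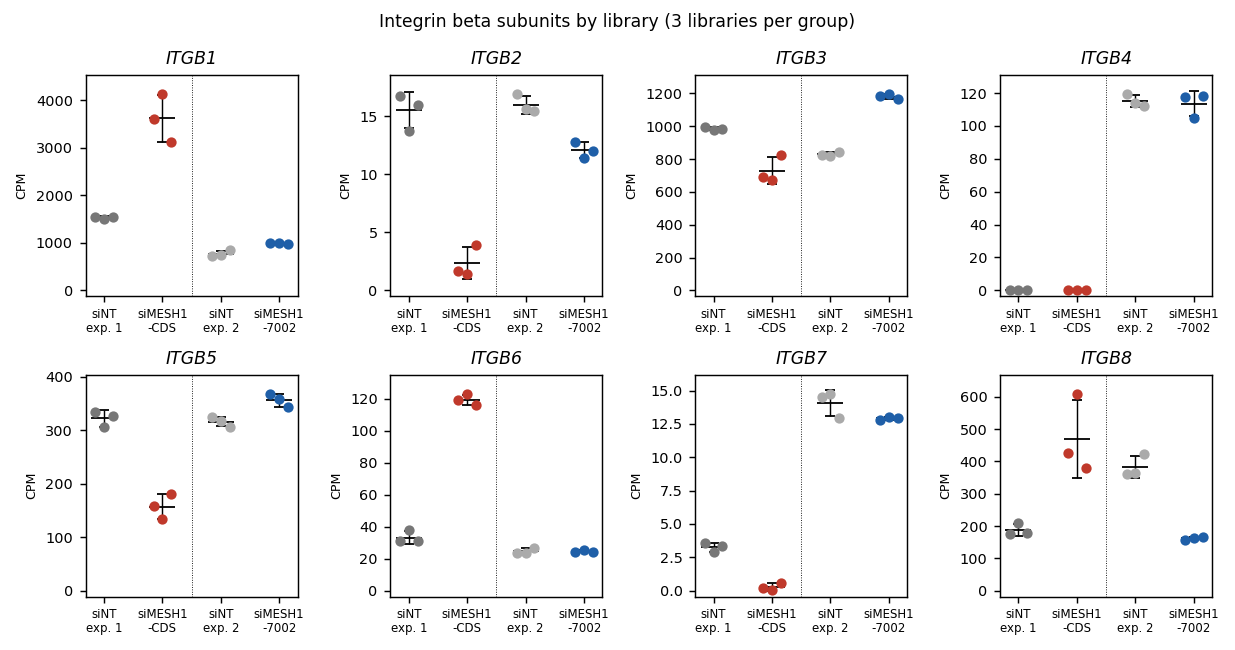
Levels of the 8 integrin beta subunits in CPM (linear axis, a scale of its own for each gene) in the 12 libraries, where points are libraries, black marks give the mean with 1 SD of 3 libraries, and the dotted line separates the experiments. ITGB1 and ITGB6 lie higher with siMESH1-CDS, ITGB8 lies higher with siMESH1-CDS and lower with siMESH1-7002, and ITGB4 had no read with siMESH1-CDS.

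ITGB4, which pairs with ITGA6, was at 119, 114 and 112 CPM with siNT and at 118, 105 and 118 CPM with siMESH1-7002, a log2 change of -0.02 (edgeR adjusted p = 0.758). It had 9 to 21 reads with siNT of experiment 1 and none with siMESH1-CDS, which against a floor of 3 reads per library is at least 3.21-fold lower. It did not pass the filter on low counts there. ITGB2 and ITGB7, the beta subunits of leukocyte receptors, were present at low levels. ITGB2 was at 16.8, 13.8 and 16.0 CPM with siNT and 1.68, 1.43 and 3.91 CPM with siMESH1-CDS, and at 16.9, 15.6 and 15.5 CPM with siNT and 12.8, 11.5 and 12 CPM with siMESH1-7002. It fell by 2.73 (edgeR adjusted p = 0.00221; a log2 change of -3.34 without siMESH1-CDS replicate 3) and by 0.41 (edgeR adjusted p = 0.000334), and after GC correction the changes were -0.07 (edgeR adjusted p = 0.803) and -0.27 (edgeR adjusted p = 0.00142). ITGB7 was at 3.27 ± 0.339 CPM with siNT and 0.272 ± 0.271 CPM with siMESH1-CDS, and passed the filter there through siNT alone. As a description, its log2 change was -3.58, -1.06 with GC correction and -4.81 without replicate 3.

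Of the 5 leukocyte alpha subunits 3 were tested with siMESH1-CDS and all 3 were called lower, against 37.2% of all genes. With GC correction 1 was called lower, against 27.0% of all genes. ITGAE fell by 2.02 (edgeR adjusted p = 0.00057), and by 0.31 with GC correction (edgeR adjusted p = 0.564). ITGAX and ITGAM passed the filter through siNT alone. Their log2 changes of -3.01 and -1.80, and of -1.19 and -0.43 with GC correction, are a description. Of the 2 tested with siMESH1-7002 neither passed the test. Among 5 leukocyte markers only CD68 reached 1 CPM in any group; CD3E was at 0 in every library, and PTPRC at a mean of 0.00716 CPM in siNT of experiment 1 and at 0 elsewhere. The summed level of the 5 markers, nearly all from CD68, lay between 45.2 and 62.5 CPM with siNT and 1.17 and 7.45 CPM with siMESH1-CDS, and between 105 and 107 CPM with siNT and 136 and 146 CPM with siMESH1-7002. Its part in these falls was not tested, and in such bulk libraries fewer cells of a type and less RNA per cell cannot be told apart.

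Type IV collagen was the most abundant collagen in every group, and its main chains COL4A1 and COL4A2 gave different values. COL4A1 was at 2970, 2689 and 2823 CPM with siNT and at 3117, 3868 and 2684 CPM with siMESH1-CDS, with overlap between the groups. In experiment 2 it was at 3766, 3658 and 3680 CPM with siNT and at 3708, 3407 and 3629 CPM with siMESH1-7002, again with overlap. The log2 changes of 0.19 (SE 0.16, edgeR adjusted p = 0.304) and -0.05 (SE 0.04, edgeR adjusted p = 0.337) did not pass the test, but with GC correction the change with siMESH1-CDS was 2.13 (edgeR adjusted p = 0.00901).

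COL4A2 was at 1102, 977 and 1066 CPM with siNT and at 197, 123 and 379 CPM with siMESH1-CDS. In experiment 2 it was at 3481, 3347 and 3257 CPM with siNT and at 2873, 2705 and 2829 CPM with siMESH1-7002. The knockdown libraries lay below all siNT libraries in both experiments. COL4A2 fell by 2.17 on the log2 scale (SE 0.41, edgeR adjusted p = 0.0042) and by 0.26 (SE 0.04, edgeR adjusted p = 3.84e-05). With GC correction the change with siMESH1-CDS turned to 1.21 (edgeR adjusted p = 0.00189) and that with siMESH1-7002 was -0.13 (edgeR adjusted p = 0.00318). The ratio of COL4A1 to COL4A2 per kb was 2.65 ± 0.0503 with siNT and 6.96 to 30.8 in the siMESH1-CDS libraries, and 1.08 ± 0.0265 with siNT and 1.26 ± 0.0153 with siMESH1-7002. The transcript of COL4A1 has 55.4% GC and that of COL4A2 62.0%.

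COL4A1 and COL4A2 lie head to head on chromosome 13 (110148963 to 110307233, minus strand, and 110305812 to 110513209, plus strand, GRCh38), where their annotated 5′ ends overlap. The setting for strand in the counting is not given in the sources used here, and without it reads in the overlap cannot be told apart. The RefSeq start sites of the pair (GRCh38.p14) are 127 bases apart, so the windows around both starts overlap. A piece of 30 bases of the overlap, shown because it lies between the starts of both abundant chains, reads on the strand of COL4A1 as follows, with the CCAAT word of the opposite strand (ATTGG) in capitals.
COL4A1 and COL4A2, chr13:110307166-110307195: cagcgccaacaaATTGGggagctcggcccg
CCAAT on either strand was found in 34.6% of the 35116 promoter windows in RefSeq's list, each of which spans a start site, and in 17 of the 65 collagen and integrin windows. The other type IV pairs are also head to head, with 111 bases between COL4A4 and COL4A3 on chromosome 2 and 346 bases between COL4A6 and COL4A5 on chromosome X in GENCODE 29.

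COL4A3 fell with each siRNA. It was at 1.77, 2.01 and 1.78 CPM with siNT and 0.885, 0.728 and 0.604 CPM with siMESH1-CDS, and at 4.32, 4.10 and 3.40 CPM with siNT and 2.95, 3.04 and 2.77 CPM with siMESH1-7002. The groups did not overlap, although the highest siMESH1-7002 value was close to the lowest of siNT. The log2 changes were -1.33 (SE 0.22, edgeR adjusted p = 0.00283) and -0.43 (SE 0.13, edgeR adjusted p = 0.0117), and -1.08 and -0.35 with GC correction, and the second call was lost without siNT replicate 1 of experiment 2 (edgeR adjusted p = 0.0606). Its neighbour COL4A4 was at 3.29, 2.88 and 3.18 CPM with siNT and 4.40, 6.01 and 4.11 CPM with siMESH1-CDS. COL4A4 rose by 0.64 (edgeR adjusted p = 0.0372), a call that was lost when any 1 of the siNT libraries was left out (edgeR adjusted p = 0.103 to 0.129) or siMESH1-CDS replicate 1 (0.0664), and that was 0.97 with GC correction (edgeR adjusted p = 0.0198). With siMESH1-7002 COL4A4 changed by -0.05 (edgeR adjusted p = 0.676). COL4A5 rose by 0.25 with siMESH1-7002 (SE 0.07, edgeR adjusted p = 0.00358), from 24.4, 24.6 and 22.9 to 27.8, 27.8 and 30.1 CPM, and its change of 0.18 with siMESH1-CDS did not pass the test, whereas with GC correction it rose by 0.75 (edgeR adjusted p = 0.0232).

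**Figure D5:**
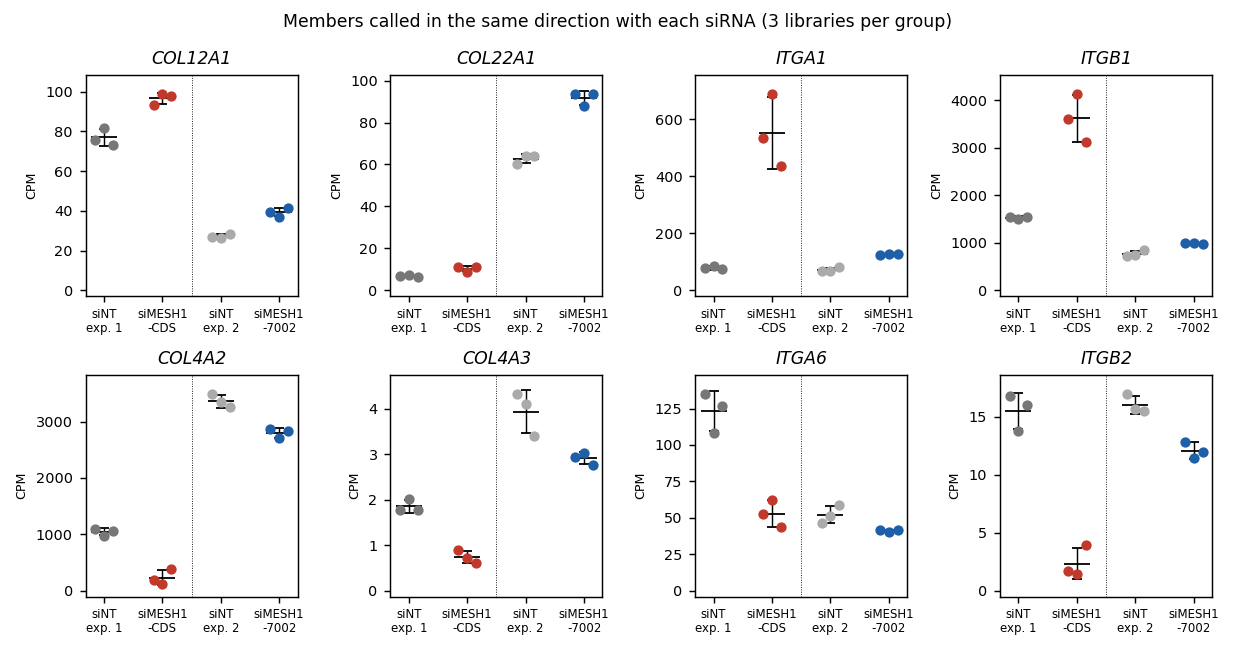
Levels in CPM (linear axis, a scale of its own for each gene) of the 8 collagen and integrin genes that rose with both siRNAs or fell with both, in the 12 libraries, where points are libraries, black marks give the mean with 1 SD of 3 libraries, and the dotted line separates the experiments. The upper 4 genes lie higher after knockdown in both experiments and the lower 4 lie lower, while their siNT levels differ between experiments.

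Of 8 beaded filament and anchoring collagens, 5 were tested with siMESH1-CDS, of which 4 were called lower and 1 higher, and 3 lower and 2 higher with GC correction. Over all genes 37.2% were called lower and 36.9% higher, and 27.0% and 40.8% with GC correction. Among all genes of 60% GC or more, 88.3% were called lower without that correction. COL7A1 was at 200, 153 and 173 CPM with siNT and at 3.13, 0.806 and 12.1 CPM with siMESH1-CDS, a log2 change of -5.03 (SE 0.97, edgeR adjusted p = 0.00466), and of -6.52 without replicate 3. COL6A2 was at 44.9, 34.4 and 42.4 CPM and at 1.14, 0.312 and 2.45 CPM, a change of -4.97 (SE 0.72, edgeR adjusted p = 0.00167), and of -5.86 without replicate 3. Both were at the GC-rich end, with 64.8% and 66.4% GC, and with GC correction the changes were -1.56 (edgeR adjusted p = 0.0049) and -1.02 (edgeR adjusted p = 0.00502). COL6A3, at 53.2% GC, fell by 3.46 (edgeR adjusted p = 0.000278) and by 2.37 with GC correction (edgeR adjusted p = 0.000238), from 9.07, 8.63 and 7.90 to 0.949, 0.598 and 0.777 CPM. COL6A1 fell by 0.78 (edgeR adjusted p = 0.00467) and turned to 3.25 with GC correction (edgeR adjusted p = 0.0023), so the 3 chains of the type VI heterotrimer did not share a direction there. The 1 gene called higher without GC correction was COL6A5, which had 4 to 6 reads per siNT library and passed the filter through the siMESH1-CDS group alone, so its call is no result about it. It was named after its values were seen.

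The changes of the same chains with siMESH1-7002 were small. COL6A1 was at 331, 324 and 302 CPM with siNT and at 333, 330 and 330 CPM, COL6A2 at 445, 430 and 397 and at 448, 437 and 423 CPM, and the log2 changes of COL6A1, COL6A2 and COL6A3 were 0.05, 0.04 and 0.03. None of the 3 passed the test. COL7A1 was at 372, 341 and 305 CPM with siNT and at 370, 388 and 425 CPM with siMESH1-7002. It rose by 0.22 (SE 0.06, edgeR adjusted p = 0.00864) although the groups overlapped, and the call was lost without siMESH1-7002 replicate 3 (edgeR adjusted p = 0.071).

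The basement membrane multiplexin COL18A1 fell with siMESH1-CDS before GC correction. COL18A1 went from 63.2, 53.1 and 56.7 to 7.27, 4.99 and 8.43 CPM, a log2 change of -3.06 (SE 0.23, edgeR adjusted p = 0.000302). At 67.2% GC it turned to 1.45 with GC correction (edgeR adjusted p = 0.0161). With siMESH1-7002 it was at 900, 883 and 874 CPM against 859, 818 and 772 with siNT, a rise of 0.12 (SE 0.04, edgeR adjusted p = 0.0318). This small rise was lost without siMESH1-7002 replicate 1, 2 or 3 (edgeR adjusted p = 0.116, 0.0828 and 0.056) or siNT replicate 2 (edgeR adjusted p = 0.061). COL15A1, at 1.14 CPM with siNT of experiment 1, fell by 3.52 with siMESH1-CDS (edgeR adjusted p = 0.00189) and by 2.00 with GC correction, to between 1 and 5 reads per library.

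COL1A1 was the fibrillar chain with the largest opposite changes. It was at 20.6, 22.3 and 19.4 CPM with siNT and 3.95, 3.85 and 4.08 CPM with siMESH1-CDS, and at 13.4, 12.1 and 10.5 CPM with siNT and 28.2, 25.8 and 29.5 CPM with siMESH1-7002. The groups were well apart in each experiment. It fell by 2.39 (SE 0.16, edgeR adjusted p = 0.000243) with siMESH1-CDS and rose by 1.22 (SE 0.09, edgeR adjusted p = 5.33e-09) with siMESH1-7002, the largest rise of the collagen and integrin genes tested with that siRNA. With GC correction the change with siMESH1-CDS was 1.13 and did not pass the test (edgeR adjusted p = 0.102), while that with siMESH1-7002 was 1.35 (edgeR adjusted p = 2.13e-13). COL1A2, which completes the common type I trimer, was not tested in either experiment.

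COL5A1, another fibrillar chain, rose by 0.23 with siMESH1-7002 (edgeR adjusted p = 0.00679), lost without siMESH1-7002 replicate 3 (edgeR adjusted p = 0.0605). With siMESH1-CDS it changed by -0.19 (edgeR adjusted p = 0.4), and by 3.00 with GC correction (edgeR adjusted p = 0.00095). COL27A1 passed the filter of experiment 1 through siNT alone. It was at 9.94, 8.70 and 10.8 CPM with siNT and 0.696, 0.104 and 3.25 CPM with siMESH1-CDS. Its log2 change, given as a description, was -2.86, -4.70 without replicate 3 and -0.10 with GC correction. It was not past the threshold without siMESH1-CDS replicate 1 or any siNT library (edgeR adjusted p = 0.0878 to 0.126). COL24A1 rose by 0.82 (edgeR adjusted p = 0.0164), from 0.845, 0.841 and 0.687 to 1.17, 1.48 and 1.55 CPM, and was called neither without any 1 siNT library (edgeR adjusted p = 0.0533 to 0.0849) nor with GC correction (edgeR adjusted p = 0.071).

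The FACIT collagens COL12A1 and COL22A1 rose with each siRNA. COL12A1, found in dense connective tissue, was at 75.8, 81.8 and 73.3 CPM with siNT and 93.5, 98.7 and 97.6 CPM with siMESH1-CDS, and at 26.8, 26.6 and 28.4 CPM with siNT and 39.5, 37.1 and 41.2 CPM with siMESH1-7002. COL22A1, known from tissue junctions, was at 6.61, 7.46 and 6.38 CPM with siNT and 11, 8.92 and 11 CPM with siMESH1-CDS, and at 60.3, 63.9 and 64.0 CPM with siNT and 93.5, 87.8 and 93.4 CPM with siMESH1-7002. Neither gene overlapped between groups. COL12A1 rose by 0.33 (edgeR adjusted p = 0.0151) and 0.53 (edgeR adjusted p = 2.47e-06), and COL22A1 by 0.60 (edgeR adjusted p = 0.0236) and 0.55 (edgeR adjusted p = 1.67e-07).

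The calls of these FACIT collagens with siMESH1-CDS were lost when some single libraries were left out, although the log2 changes moved little. They stayed between 0.289 and 0.370 for COL12A1 and between 0.529 and 0.706 for COL22A1. COL12A1 was not called without siNT replicate 1 (edgeR adjusted p = 0.0676) or 3 (0.0785), nor with library size scaling (change 0.06) or GC correction (change 0.16, edgeR adjusted p = 0.0557). COL22A1 was not called without siNT replicate 1, 2 or 3 (edgeR adjusted p = 0.0964, 0.0553 and 0.107) or siMESH1-CDS replicate 1 (0.0831), nor with library size scaling, but was at 3.44 with GC correction (edgeR adjusted p = 0.00112). COL16A1, named after its values were seen, was the FACIT collagen called lower among the 3 tested with siMESH1-CDS. It was at 1.92, 1.66 and 2.19 CPM with siNT and at 0.190, 0 and 0.374 CPM with siMESH1-CDS, and passed the filter there through siNT alone. As a description, its log2 change was -3.36, -2.73 without siMESH1-CDS replicate 2, -4.44 without replicate 3 and -0.08 with GC correction. COL9A2, a cartilage FACIT collagen, had no read with siNT of experiment 1 and passed the filter of experiment 2 through siNT alone. It was at 1.07, 1.09 and 1.35 CPM with siNT and 0.243, 0.540 and 0.660 CPM with siMESH1-7002. The log2 change of -1.26 is given as a description. The transmembrane collagen COL13A1 fell by 1.79 with siMESH1-CDS (edgeR adjusted p = 0.00159), turned to 1.02 with GC correction (edgeR adjusted p = 0.0491), and rose by 0.30 with siMESH1-7002 (edgeR adjusted p = 0.0165), a call lost without siNT replicate 1 or siMESH1-7002 replicate 1 or 3 (edgeR adjusted p = 0.0529, 0.0727 and 0.0536). COL17A1, the hemidesmosomal collagen, passed the filter through the siNT group alone. It was at 3.14, 2.26 and 3.05 CPM with siNT and at 0.0949, 0.312 and 0.288 CPM with siMESH1-CDS, a log2 change of -3.57, and of -1.73 with GC correction, given as a description.

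The difference between the changes of the 2 siRNAs was tested in a fit of all 12 libraries, which assumes 1 spread for experiments whose variation differed. Of 46 genes tested, 28 had a higher and 6 a lower change with siMESH1-7002 than with siMESH1-CDS, and 12 did not differ past the threshold. Over all 14154 genes, 39.7% were called higher and 30.0% lower. With GC correction 15 were higher and 11 lower, against 27.8% and 34.0% of all genes. The largest positive differences among genes at 1 CPM were those of ITGB4 (6.51), COL7A1 (5.40), COL6A2 (5.16), COL15A1 (4.52) and ITGA7 (3.86). The value of ITGB4 rests on a group without reads and is no bound. COL15A1 passed the filter through siNT of experiment 1 alone, so its difference is a description. Without siMESH1-CDS replicate 3 the differences of COL7A1 and COL6A2 were 6.82 and 5.99, and without siNT replicate 2 of experiment 2 that of COL15A1 was 5.70. The lower changes with siMESH1-7002 were those of ITGB8, ITGA1, ITGB6, COL24A1, ITGB1 and COL4A4, all with transcripts under 50% GC. The calls of COL24A1 (-0.87) and COL4A4 (-0.53) were each lost when any of several single libraries was left out, with edgeR adjusted p from 0.0531 to 0.0974 for COL24A1 and from 0.0541 to 0.0901 for COL4A4.

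The seed words were looked for in the 3′UTRs of the genes tested. ACATTGT, the word of siMESH1-CDS, was in the 3′UTR of 9 of 41 collagen and integrin genes and of 16.9% of 12236 genes, and GCTAACT, the word of siMESH1-7002, of 3 of 41 and of 6.25% of 12501 genes. The word GCTAACT was found in COL4A3, ITGAV and ITGB8, with 2 matches in ITGB8, whose log2 changes with siMESH1-7002 were -0.43, 0.03 and -1.24. The sites of ITGB8, chosen because it changed most, and that of ITGAV, which did not pass the test, are given 5′ to 3′ from GENCODE 29 (GRCh38) with the word in capitals.
ITGB8, base 2224 of its 3′UTR: cactttcaatGCTAACTtgaact
ITGB8, base 4861 of its 3′UTR: atctttgtaaGCTAACTctatta
ITGAV, base 3515 of its 3′UTR: tttgtaatttGCTAACTtgattt
Over all genes with siMESH1-7002 the median log2 change was -0.21 with a match and 0.01 without. The word ACATTGT was in the 3′UTRs of COL12A1, COL24A1, COL4A2, COL5A1, ITGA1, ITGA2 (2 matches), ITGAE, ITGB1 and ITGB6. Of these, COL12A1, COL24A1, ITGA1, ITGB1 and ITGB6 rose with siMESH1-CDS and COL4A2, ITGA2 and ITGAE fell. The median over all genes was 0.34 with a match and -0.20 without, and -0.01 and 0.22 with GC correction. A match is a description of these letters only.

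Genes that make, receive or anchor to collagen were counted as well. Of 30 listed genes of collagen synthesis and crosslinking, 28 were tested with siMESH1-CDS (7 rose and 16 fell, and 15 and 6 with GC correction) and 29 with siMESH1-7002 (14 rose and 3 fell, and 20 and 4 with GC correction). Over all genes 36.9% were called higher and 37.2% lower with siMESH1-CDS, and 26.6% and 26.7% with siMESH1-7002. After GC correction the shares were 40.8% and 27.0% with siMESH1-CDS, and 39.8% and 24% with siMESH1-7002. PLOD2, a lysyl hydroxylase, rose by 1.30 with siMESH1-CDS (edgeR adjusted p = 0.00211) and by 0.82 with siMESH1-7002 (edgeR adjusted p = 3.05e-09). SEC23A, a COPII coat subunit used in procollagen export, rose by 1.39 (edgeR adjusted p = 0.000311) and 0.47 (edgeR adjusted p = 1.72e-06). Both kept their sign with GC correction, at 0.44 and 0.55 with siMESH1-CDS. PLOD3, another lysyl hydroxylase, fell by 4.17 (edgeR adjusted p = 0.00239) and 0.87 (edgeR adjusted p = 7.94e-10), and by 1.08 with siMESH1-CDS after GC correction.

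Of 22 laminins and other ligands, 18 were tested in both experiments. With siMESH1-CDS 4 rose and 9 fell, and 6 and 7 with GC correction, and with siMESH1-7002 8 rose and 4 fell, and 11 and 3 with GC correction. For this list and those below, the siMESH1-CDS shares over all genes were 36.9% higher and 37.2% lower (40.8% and 27.0% with GC correction). The siMESH1-7002 shares were 26.6% and 26.7% (39.8% and 24% with GC correction). FBN1 (fibrillin), SPARC and LAMC1, a laminin chain, rose with both, by 2.21, 1.63 and 0.71 with siMESH1-CDS and by 0.88, 1.54 and 0.58 with siMESH1-7002. With GC correction the first 3 values were 2.10, 1.59 and 0.85, each past the threshold of the test. Of 24 integrin adaptors and kinases, 22 were tested with siMESH1-CDS (5 rose and 15 fell, and 8 and 4 with GC correction) and 23 with siMESH1-7002 (5 rose and 7 fell, and 11 and 5 with GC correction). PARVB, an ILK partner, fell by 3.03 (edgeR adjusted p = 0.033) and 0.46 (edgeR adjusted p = 7.35e-06), and by 2.25 with siMESH1-CDS after GC correction (edgeR adjusted p = 0.0316). TNS3, a tensin, fell by 1.13 (edgeR adjusted p = 0.0191) and 1.19 (edgeR adjusted p = 7.77e-13) but turned to 0.53 with siMESH1-CDS after GC correction. Of 11 other collagen receptors and proteases, 6 were tested in both experiments. With siMESH1-CDS 1 rose and 4 fell, and none and 4 with GC correction, and with siMESH1-7002 2 rose and none fell, and 4 and none with GC correction. The collagenase MMP1 was called in opposite directions, from 52.1 ± 6.80 to 14.3 ± 1.54 CPM with siMESH1-CDS and from 3.82 ± 0.665 to 8.73 ± 0.384 CPM with siMESH1-7002, and its log2 changes with GC correction were -2.37 and 1.20.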

How the data were processed

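RNA of RCC4 cells was sequenced as TruSeq Stranded mRNA libraries. The authors deposited raw read counts for each gene, produced with HISAT2 and HTSeq on hg19; versions, annotation and strand setting are not given in the sources used here. Rows that name no gene, 38.9% to 49.3% of all counted, were left out. Their DESeq2 tables hold their own comparisons and were not used. Libraries were grouped by siRNA and experiment, and each siRNA was tested against its own siNT with edgeR 4.0.16 in R 4.3.3 (filterByExpr, TMM, quasi-likelihood F test, Benjamini-Hochberg over all genes, threshold 0.05). 1 CPM rests on about 25 to 49 reads. Alternatives were DESeq2 1.42.0, other scalings and filters, lane, a replicate block, all groups in 1 fit, leaving out each library, and GC correction (offsets from a lowess smooth of log2 CPM, prior count 1, span 0.3). GC content, lengths and 3′UTRs come from GENCODE 29 on GRCh38, matched by symbol (all 69 genes). Scripts used Python 3.11.15, pandas 2.3.3 and scipy 1.17.1 and were tested on simulated counts. Named genes were COL4A1, ITGB1, the 10 highest collagens and 10 highest integrins with siNT, those called with both siRNAs, the 5 largest changes each way at 1 CPM, and the type IV chains and beta subunits; COL16A1, COL6A3, COL6A5, ITGA10 and the leukocyte alpha subunits were added after their values were seen. The genes and lists were chosen with earlier results of these data known.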

Additional observations from a re-analysis of the deposited data

Results flagged for a closer look

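For 29 of the named collagen and integrin genes the change with siMESH1-7002 differed from that with siMESH1-CDS by edgeR's test of the difference itself. As the log2 change with siMESH1-7002 minus that with siMESH1-CDS, the differences of the collagens were 0.351 for COL12A1, 2.25 for COL13A1, 4.52 for COL15A1, 3.46 for COL17A1, 3.33 for COL18A1, 3.76 for COL1A1, -0.869 for COL24A1, 3.06 for COL27A1, 0.567 for COL5A1, 0.982 for COL6A1, 5.16 for COL6A2 and 5.4 for COL7A1. Among the type IV chains they were 2.06 for COL4A2, 1.04 for COL4A3 and -0.533 for COL4A4. Those of the alpha subunits were -1.84 for ITGA1, 1.77 for ITGA2, 3.63 for ITGA3, 3.5 for ITGA5, 1.02 for ITGA6 and 3.86 for ITGA7. Those of the beta subunits were -0.724 for ITGB1, 2.47 for ITGB2, 1.1 for ITGB3, 6.51 for ITGB4, 1.35 for ITGB5, -1.69 for ITGB6, 3.62 for ITGB7 and -2.41 for ITGB8. With GC correction 15 of the 29 passed the test in the same direction, 7 kept the direction without passing and 7 turned. The calls of COL12A1, COL24A1, COL4A4 and COL5A1 were also lost without single libraries, and without siMESH1-CDS replicate 3 the differences of COL27A1, COL6A2, COL7A1, ITGA3, ITGA5 and ITGB7 were 4.83, 5.99, 6.82, 4.78, 4.6 and 4.76. COL15A1, COL17A1, COL27A1, ITGA7, ITGB4 and ITGB7 held under 10 reads in some libraries, so their values rest on few reads there. COL15A1 and COL17A1 passed the filter of that test through siNT of experiment 1 alone, and ITGB4 through experiment 2 alone. Their differences are a description and no result of the test. Experiment, lane, depth and siRNA cannot be told apart in these differences.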

How the results depend on the processing

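Of 76 called changes of named genes, 34 kept their direction and their call under every alternative and 14 changed sign, all 14 with GC correction. With it the changes with siMESH1-CDS became 1.02 for COL13A1, 1.45 for COL18A1, 1.13 for COL1A1, 1.21 for COL4A2, 3.25 for COL6A1, 0.45 for ITGB3 and 0.38 for ITGB5. The differences between siRNAs became -0.58 for COL13A1, -0.52 for COL18A1, -1.28 for COL4A2, -2.65 for COL5A1, -2.83 for COL6A1, -0.22 for ITGB2 and -0.13 for ITGB5. GC correction gave 16 higher and 14 lower genes with siMESH1-CDS, 21 higher with siMESH1-7002, and 15 higher and 11 lower in the difference. The 10 genes higher with siMESH1-CDS were 5 with library size scaling, with at least 10 counts in every library, with lane as a covariate, and at an adjusted p under 0.01, and between 5 and 11 when 1 library was left out. The 13 higher and 8 lower genes with siMESH1-7002 were 7 and 2 in 1 fit of all 4 groups, and 6 and 3 when a minimum fold change was also required. In that fit of all 4 groups 1138 of all 14154 genes were called higher and 1444 lower. The causes were not tested. Library size scaling moved the median of all genes by -0.26 with siMESH1-CDS and by 0.10 in the difference, and DESeq2 size factors moved the latter by -0.12. Without division by length COL4A1 and COL4A2 made up 88.1% and 76.2% of the collagen level in siNT of experiments 1 and 2. With the replicate number as a block 6 genes were higher and 26 lower with siMESH1-CDS, 13 and 8 with siMESH1-7002, and 28 and 4 in the difference. Deviations of same-numbered siNT and knockdown libraries had correlations of -0.0865, 0.331 and 0.206 in experiment 1 and -0.0917, 0.0291 and -0.102 in experiment 2. In experiment 1, 2 of 3 libraries correlated best with their own number, and in experiment 2, 0 of 3. With 3 libraries per group these values cannot decide whether the numbers pair the libraries. The 24 genes tested in neither experiment, with group means of at most 0.417 CPM, were left out by the filter on low counts. Whether they changed was thus not tested in the main fits. Some passed the threshold under alternatives that let them through. COL28A1 with siMESH1-7002 had edgeR adjusted p from 0.0011 to 0.061 there, on at most 12 reads per library.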
